A study of Homo sapiens with 8 samples.

Results

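The genes described here are targets of the tumour suppressor p53 and regulators of apoptosis, measured by total RNA sequencing in human embryonic stem cells on their way to mesendoderm, from which mesoderm and endoderm both arise. They were chosen by name, as rows of the deposited comparison table that carry 1 of 35 listed gene symbols, and 34 of the 35 were found among the 15811 genes of that table. The list holds 23 p53 targets, of which 22 were found, and 12 regulators of apoptosis, all found; GDF15, a secreted stress cytokine, was not analysed here. All cells were H9, an established line of human embryonic stem cells, and formed 2 groups with 4 libraries each: EXT1-/- cells, in which EXT1 had been targeted with CRISPR/Cas9, and wild type (WT) H9 cells. EXT1 encodes a glycosyltransferase that extends heparan sulfate, and the submitters describe the mutant line as lacking this glycan. Both groups had been plated in stem cell medium with 5 µM Y-27632, a ROCK kinase inhibitor that helps single stem cells survive, and were collected 28 h after a change to RPMI with 6 µM CHIR-99021, which inhibits GSK3 and thereby stabilises β-catenin. The genotype is represented by 1 edited line. Nothing in the labels ties replicates to separate cultures, so the p-values cover only how far these libraries vary, and that variation may be technical.

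p53 is a transcription factor that is held at a low level by the ubiquitin ligase MDM2 and released by DNA damage and other stresses. Its targets stop the cell cycle, repair DNA, adjust metabolism or, when stress lasts, start apoptosis. In the mitochondrial route to apoptosis, BH3-only proteins bind and disarm the survival proteins of the BCL2 family or directly activate BAX and BAK1, which open the outer mitochondrial membrane; cytochrome c then joins APAF1 to switch on caspase-9. Death receptors such as FAS act through caspase-8 instead. Human pluripotent stem cells are known for a low threshold for this kind of death.

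The values are normalised read counts, which the authors had scaled so that all libraries have nearly the same effective size; they summed to between 37737058 and 40017763 per library, and 38.9 of them make 1 CPM, a scale relative to library size. Of the 34 genes, 33 had at least 1 CPM in every library, so few of these values are limited by low counts. The 8 libraries split into 2 sets, unnamed in the labels, by the share of counts from mitochondrially encoded transcripts. That share was 9.18 to 10.7% in EXT1-/- replicates 1 and 4 and WT replicate 1, the high set, and 5.30 to 5.43% in the other 5 libraries, the low set. EXT1 itself, read as a check of the labels, had 890, 894, 915 and 980 normalised counts in EXT1-/- replicates 1 to 4, against 1776, 1499, 1464 and 1508 in WT replicates 1 to 4. The EXT1 transcript was thus lower in every EXT1-/- library but present in all of them, and gene totals do not show which exon was edited. In bulk RNA, fewer cells that express a gene and less of its RNA per cell cannot be told apart.

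Across the 34 genes the data show no uniform shift. CDKN1A, which encodes the cell cycle inhibitor p21, was 3.03-fold higher in EXT1-/- cells, whereas PMAIP1, which encodes the BH3-only protein NOXA, was lower, at 0.311 of its WT level. Both are classical p53 targets. Most of the p53 targets that passed the test were lower in EXT1-/- cells, and the BH3-only genes BIK and BMF were higher.

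By limma on log2(value + 1), with Benjamini-Hochberg adjustment over all 15811 genes and a threshold of 0.05, 15 of the 34 genes differed between EXT1-/- and WT cells, 5 higher and 10 lower. That is 44.1% of them, beside 32.0% of all genes tested and 31.2% of the genes with at least 1 CPM in every library. By direction, 14.7% of the 34 were higher beside 15.2% of all genes, and 29.4% were lower beside 16.8% of all genes. Of the 15, 9 also differed by at least 1.5-fold (26.5% of the 34, beside 15.2% of all genes). Of these 9, CDKN1A and BIK were higher (beside 6.41% of all genes), and PMAIP1, SPATA18, PHLDA3, BTG2, XIAP, ZMAT3 and TNFRSF10B were lower (beside 8.84% of all genes). The values of EXT1-/- and WT libraries did not overlap in 13 of the 34 genes (38.2%), where 33.5% of all genes showed no overlap. Of the 13, 5 were higher (beside 16.3% of all genes) and 8 lower (beside 17.2%). Groups without overlap always have an exact two-sided permutation p of 0.0286, the smallest possible with 70 divisions of 8 libraries. That p thus adds nothing to the count. The median log2 fold change was -0.24 over the 22 p53 targets and -0.17 over the 12 apoptosis regulators, beside 0.01 over all genes. An FDR below 0.05 in the authors' deposited table was given to 12 of the 34 genes (35.3%, beside 26.2% of all genes), 3 higher and 9 lower, and all 12 were among the 15. The rest of the 15 were BBC3, FAS and XPC, with FDRs of 0.0608, 0.112 and 0.126 in the authors' deposited table.

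The count of lower genes depends on the library sets. With the set as a term in the model, 27 of the 34 differed (79.4%, beside 51.8% of all genes): 7 were higher in EXT1-/- cells (beside 26.2% of all genes) and 20 lower (beside 25.6%). Within the 5 libraries of the low set 24 differed (70.6%, beside 45.4%), 5 higher (beside 21.1%) and 19 lower (beside 24.3%). Without WT replicate 1, which is the only WT library of the high set, 16 were lower and 4 higher, and 6041 of all genes were called, beside 5063 with all libraries. All 15 genes called from the 8 libraries kept their direction within the high set, which holds 1 WT library. In all of them but SESN1 and BAX the groups do not overlap, so any part of the libraries must keep that direction. The agreement is thus no separate support. Of the 15, 10 were called whichever library was left out: CDKN1A, PMAIP1, ZMAT3, TNFRSF10B, PHLDA3, SPATA18, BTG2, BIK, BMF and XIAP. The count of higher genes was 3 without EXT1-/- replicate 1, 2 or 3 or without WT replicate 4. The calls of BBC3, FAS, SESN1, BAX and XPC were each lost in at least 2 of the 8 such fits.

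**Figure D1:**
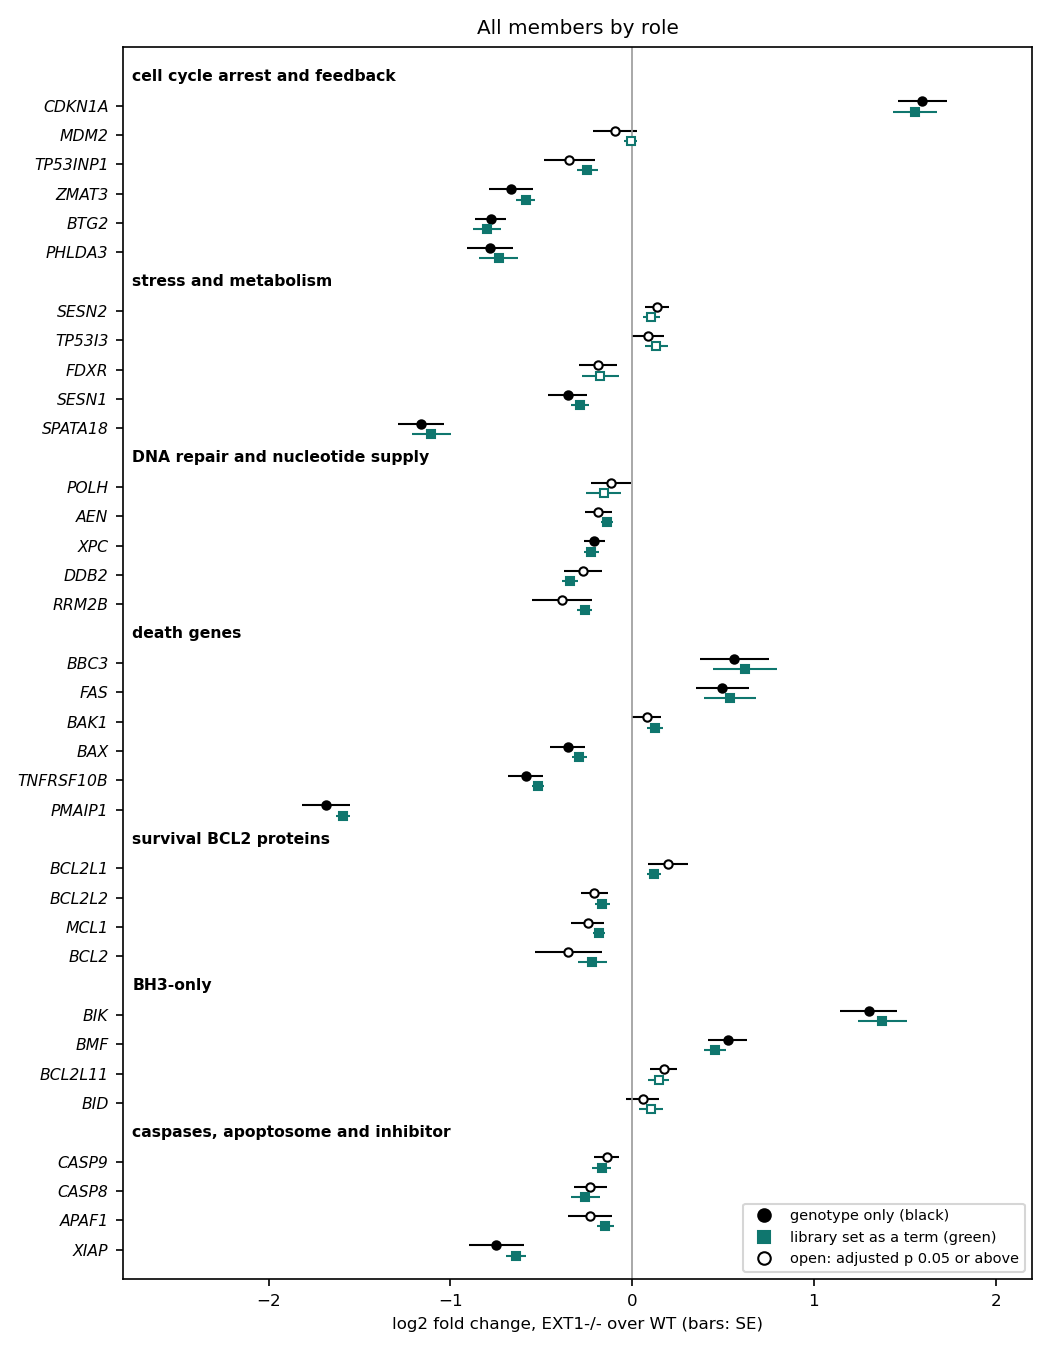
Log2 fold change of EXT1-/- over WT cells for the 34 genes, grouped by role, with the standard error as a bar. Black circles are the model with genotype only and green squares the model with the library set as a term, filled where the adjusted p was below 0.05. CDKN1A and BIK lie farthest to the right and PMAIP1 and SPATA18 farthest to the left under both models.

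Among the p53 targets that act in cell cycle arrest and in feedback on p53, 1 of 6 was higher and 3 were lower, with a median log2 fold change of -0.51. Each role holds only 4 to 6 measured genes, and its counts stand beside 15.2% of all genes higher and 16.8% lower. CDKN1A (ENSG00000124762, chromosome 6, 36676460 to 36687339 on the plus strand of GRCh38, GENCODE 29) had 2326, 2234, 2516 and 3212 normalised counts in EXT1-/- replicates 1 to 4, against 894, 836, 961 and 695 in WT replicates 1 to 4. Every EXT1-/- library lay above every WT library, with means of 2572 ± 443 in EXT1-/- cells and 846.5 ± 113 in WT cells (SD, n = 4 each). The log2 fold change was 1.60 ± 0.13 (SE, adjusted p 3.87e-05, limma), 1.52 in the low set alone and 1.61 in the high set alone, so the difference was about as large in either set.

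The other called genes of this role went the opposite way. BTG2, an antiproliferative gene that p53 induces, had 340, 312, 293 and 288 normalised counts in EXT1-/- libraries, against 558, 512, 567 and 481 in WT libraries. Its log2 fold change was -0.78 ± 0.08 (SE, adjusted p 0.000163, limma), and the groups did not overlap. PHLDA3, whose protein restrains the survival kinase AKT, had 198, 213, 244 and 246 counts in EXT1-/- libraries, against 313, 439, 428 and 380 in WT libraries. The groups of PHLDA3 were also separate (log2 fold change -0.78 ± 0.13, adjusted p 0.00161, limma), with -0.86 in the low set and -0.50 in the high set. ZMAT3, an RNA-binding protein gene, had 460, 615, 585 and 457 counts in EXT1-/- libraries, against 732, 888, 900 and 824 in WT libraries. Libraries of the high set were the lowest of their group for ZMAT3, and the difference held in either set (log2 fold change -0.67 ± 0.12 over all, -0.54 low set, -0.67 high set; adjusted p 0.00296, limma).

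MDM2, the p53 target that marks p53 for degradation, had 2081, 2577, 2571 and 2010 normalised counts in EXT1-/- libraries, against 2014, 2593, 2540 and 2719 in WT libraries. The MDM2 values of the groups overlapped throughout, and the low values were those of the high set in both groups. Its log2 fold change was -0.09 ± 0.12 (SE, adjusted p 0.586, limma), and -0.01 ± 0.04 with the library set as a term (adjusted p 0.879, limma). TP53INP1, which promotes p53 phosphorylation and autophagy, had 288 to 403 counts in EXT1-/- libraries and 352 to 483 in WT libraries. It did not pass over the 8 libraries (log2 fold change -0.35 ± 0.14, adjusted p 0.0928, limma) and was lower with the set as a term (-0.25 ± 0.06, adjusted p 0.00546, limma).

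The promoters of the most raised and most lowered p53 target are shown here because these 2 genes moved in opposite directions. Each is the 250 bases before the gene's start in RefSeq (GRCh38.p14), with the GC box GGGCGG on either strand in capitals. The window of CDKN1A is chr6:36678464-36678713 on the plus strand, and that of PMAIP1 is chr18:59899746-59899995 on the plus strand.
CDKN1A: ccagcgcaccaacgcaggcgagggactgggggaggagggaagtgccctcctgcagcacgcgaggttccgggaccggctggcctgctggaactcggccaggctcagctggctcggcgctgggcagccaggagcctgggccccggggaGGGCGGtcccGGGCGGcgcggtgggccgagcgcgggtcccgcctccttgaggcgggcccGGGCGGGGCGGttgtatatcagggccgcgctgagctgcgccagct
PMAIP1: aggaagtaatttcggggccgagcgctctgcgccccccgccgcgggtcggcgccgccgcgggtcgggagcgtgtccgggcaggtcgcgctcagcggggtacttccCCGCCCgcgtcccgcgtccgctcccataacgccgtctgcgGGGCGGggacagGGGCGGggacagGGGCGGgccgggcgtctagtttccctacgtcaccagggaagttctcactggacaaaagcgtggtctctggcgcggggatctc
Each window holds 4 GC boxes, overlapping ones counted apart, and neither holds the p53 consensus decamer. Sites outside the windows, or differing from the exact consensus, could not be found by this search. The absence of the decamer therefore does not show that either gene lacks a p53 site. The window of CDKN1A also lies within the gene as annotated in GENCODE, which begins at 36676460. Of the 34 genes 27 had a RefSeq promoter window, and 20 of the 27 held a GC box, beside 67.1% of 10865 windows of genes in the table. TATAAA was found in BCL2L1 (beside 5.14% of all windows), the cell cycle homology region TTTGAA in FAS (8.38%), the AP-1 site TGANTCA in BBC3 and FAS (3.62%), the E-box CACGTG in BAX and BBC3 (8.80%) and the cAMP response element TGACGTCA in none (2.81%), each searched on both strands. The decamer, the 10-base unit that p53 binds in pairs, was searched by its exact consensus on both strands and found in 3 of the 27, beside 4.45% of the 10865, and no window of the 27 held a pair of them at most 13 bases apart. Those 3 are given with 10 bases on each side and the decamer in capitals.
AEN: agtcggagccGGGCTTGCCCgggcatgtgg
BAK1: aaagtgggcgGGACATGCTCctgggcctgg
FDXR: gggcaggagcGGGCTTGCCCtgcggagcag
The decamers begin 34, 73 and 11 bases before the gene's start in RefSeq. With the 10 bases on each side, the stretches span chr15:88621296-88621325 (plus strand), chr6:33580330-33580359 (minus strand) and chr17:74872986-74873015 (minus strand). Those of AEN and FDXR also lie within the genes as annotated in GENCODE, which begin at 88621296 and 74873031. None of these 3 genes passed the test between EXT1-/- and WT cells with genotype as the only term. With the library set as a term AEN was lower and BAK1 higher (adjusted p 0.00545 and 0.0399, limma), and FDXR did not pass (adjusted p 0.175, limma).

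Among the p53 targets of stress responses and metabolism, 2 of the 5 found were lower and 0 were higher (also 0 at an unadjusted p below 0.05 and by limma-voom), with a median log2 fold change of -0.19. SPATA18, whose protein acts in the turnover of damaged mitochondria, had 75, 73, 77 and 66 normalised counts in EXT1-/- libraries, against 132, 179, 177 and 172 in WT libraries. All EXT1-/- libraries lay well below the lowest WT library, which was WT replicate 1. The log2 fold change of SPATA18 was -1.16 ± 0.13 (SE, adjusted p 0.000170, limma), the second largest fall among the 34 genes. SESN1, a sestrin that restrains mTORC1, had 804 to 1018 counts in EXT1-/- libraries and 989 to 1271 in WT libraries, with a log2 fold change of -0.35 ± 0.11 (adjusted p 0.0316, limma). This call was lost without any of EXT1-/- replicates 1 and 4 and WT replicates 2, 3 and 4.

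The other stress genes did not pass. SESN2, a sestrin that also responds to amino acid shortage, had 1075 to 1292 counts in EXT1-/- libraries and 1029 to 1095 in WT libraries (log2 fold change 0.14 ± 0.07, adjusted p 0.157, limma). TP53I3, an oxidoreductase gene, ranged from 615 to 700 in EXT1-/- libraries and from 549 to 709 in WT libraries (log2 fold change 0.09 ± 0.09). FDXR, the ferredoxin reductase of mitochondrial steroid and iron-sulfur metabolism, ranged from 518 to 591 in EXT1-/- libraries and from 547 to 746 in WT libraries (log2 fold change -0.19 ± 0.10).

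Of the genes of DNA repair and nucleotide supply, 1 of 5 passed the test, as lower. Once the library set was in the model 4 of 5 passed as lower, beside 25.6% of all genes. XPC, which recognises damage in nucleotide excision repair, had 1562 to 1748 normalised counts in EXT1-/- libraries and 1897 to 2037 in WT libraries. These ranges did not overlap, and the difference was small (log2 fold change -0.21 ± 0.06, adjusted p 0.0214, limma). DDB2, its partner in the recognition of ultraviolet damage, had 1999, 1540, 1586 and 1798 counts in EXT1-/- libraries, against 2418, 1988, 2043 and 1889 in WT libraries. Here the libraries of the high set were the highest of their group, and the log2 fold change was -0.27 ± 0.11 without the set (adjusted p 0.0813, limma) and -0.34 ± 0.05 with it (adjusted p 0.000219, limma).

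RRM2B, the p53-induced subunit of ribonucleotide reductase, had 1576, 2133, 2264 and 1468 normalised counts in EXT1-/- libraries, against 1891, 2574, 2564 and 2603 in WT libraries. Its values split by library set within each group, the high set being lower. The log2 fold change of RRM2B was -0.38 ± 0.16 over all libraries (adjusted p 0.107, limma) and -0.26 ± 0.04 with the set as a term (adjusted p 0.000530, limma). AEN, an apoptosis-enhancing nuclease gene, had 3442 to 4078 counts in EXT1-/- libraries and 3876 to 4500 in WT libraries, with -0.19 ± 0.07 and, with the set as a term, -0.14 ± 0.03 (adjusted p 0.0882 and 0.00545, limma). POLH, the polymerase that copies past ultraviolet lesions, did not pass either way (238 to 286 counts in EXT1-/- libraries and 239 to 326 in WT libraries; log2 fold change -0.11 ± 0.11).

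**Figure D2:**
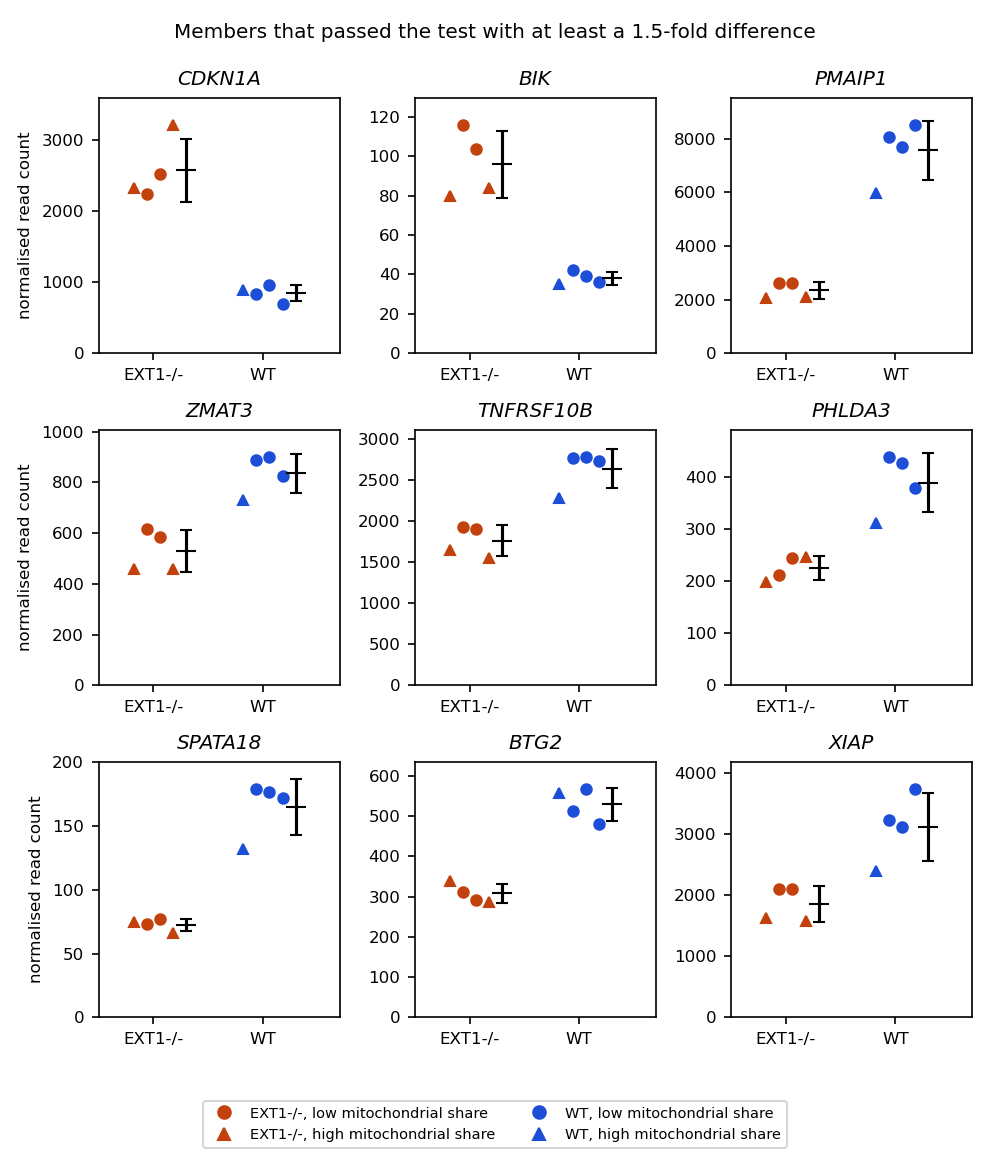
Normalised read counts per library of the 9 genes that passed the test with at least a 1.5-fold difference, in EXT1-/- (left) and WT (right) cells. Triangles are libraries of the high set and circles those of the low set, and the bar beside them is the mean ± SD of 4 libraries. The groups are separate in every panel, with EXT1-/- libraries above WT for CDKN1A and BIK and below WT for the other 7.

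The p53 targets that promote death moved both ways, 2 of 6 higher and 3 lower. PMAIP1 (ENSG00000141682, chromosome 18, 59899948 to 59904306, plus strand) had 2038, 2617, 2631 and 2094 normalised counts in EXT1-/- libraries, against 5962, 8058, 7704 and 8512 in WT libraries. Every EXT1-/- library lay far below the lowest WT library, and the means were 2345 ± 323 in EXT1-/- cells and 7559 ± 1115 in WT cells (SD, n = 4 each). The log2 fold change of PMAIP1 was -1.69 ± 0.13 (SE, adjusted p 2.50e-05, limma), the largest fall among the 34 genes, with -1.62 in the low set alone and -1.53 in the high set alone. BBC3, which encodes PUMA, the other main BH3-only protein that p53 induces, went in the opposite direction with 220, 256, 246 and 235 counts in EXT1-/- libraries, against 135, 200, 213 and 118 in WT libraries. All EXT1-/- values of BBC3 were above the WT values, which were widely spread. Its log2 fold change was 0.56 ± 0.19 (adjusted p 0.0495, limma), just past the threshold, and the call was lost within the low set (0.55, adjusted p 0.0927, limma) and in 6 of the 8 fits that leave out a library.

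The p53-induced death receptors also differed in direction. FAS had 109, 124, 102 and 96 normalised counts in EXT1-/- libraries, against 68, 95, 77 and 66 in WT libraries. The lowest EXT1-/- library lay just above the highest WT library (log2 fold change 0.50 ± 0.15, adjusted p 0.0315, limma), and the call was lost within the low set (0.51, adjusted p 0.0592, limma) and in 6 of the 8 fits that leave out a library. TNFRSF10B, a receptor for the death ligand TRAIL (chromosome 8, 23020133 to 23069179, minus strand), had 1648, 1931, 1902 and 1555 counts in EXT1-/- libraries, against 2278, 2764, 2778 and 2728 in WT libraries. Its groups were clearly separate, and the log2 fold change was -0.59 ± 0.10 (adjusted p 0.00175, limma), with -0.52 in the low set and -0.51 in the high set.

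Of the pore-forming effectors, BAX had 2056, 2285, 2495 and 2080 normalised counts in EXT1-/- libraries, against 2399, 3063, 3012 and 2942 in WT libraries. WT replicate 1 fell inside the EXT1-/- range and the other WT libraries lay above it. BAX was lower at a log2 fold change of -0.35 ± 0.10 (adjusted p 0.0218, limma), a call lost without any of EXT1-/- replicates 1 and 4 and WT replicates 2, 3 and 4. With the set as a term it was -0.29 ± 0.04 (adjusted p 0.000368, limma). BAK1, the second effector, had 1870 to 2066 counts in EXT1-/- libraries and 1586 to 2005 in WT libraries. It did not pass with genotype as the only term (log2 fold change 0.08 ± 0.08, adjusted p 0.492, limma). With the set as a term BAK1 was higher (0.13 ± 0.05, adjusted p 0.0399, limma), but it did not pass within the low set (0.06, adjusted p 0.297, limma).

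Of the 4 survival genes of the BCL2 family 0 passed the test over the 8 libraries (limma and limma-voom), 2 were lower at an unadjusted p below 0.05, and their median log2 fold change was -0.23. By limma without the adjustment for library set, the adjusted p ran from 0.0644 for BCL2L2 to 0.201 for BCL2L1. MCL1, a short-lived survival protein that NOXA binds, had 6722, 7895, 7895 and 6936 normalised counts in EXT1-/- libraries, against 7428, 9115, 9038 and 9365 in WT libraries. Within either library set the EXT1-/- values of MCL1 were the lower ones, with a log2 fold change of -0.24 ± 0.09 over all (adjusted p 0.0688, limma) and -0.18 ± 0.03 with the set as a term (adjusted p 0.00102, limma). BCL2L1, which encodes BCL-XL, had 3636, 3059, 3130 and 4019 counts in EXT1-/- libraries, against 3526, 2895, 2833 and 2797 in WT libraries. The high-set libraries were the highest of their group. BCL2L1 did not pass over the 8 libraries (0.20 ± 0.11, adjusted p 0.201, limma) and was higher with the set as a term (0.12 ± 0.04, adjusted p 0.0252, limma).

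BCL2, the founding survival gene of the family, had 154, 213, 216 and 139 normalised counts in EXT1-/- libraries, against 175, 240, 233 and 267 in WT libraries. The groups overlapped, and the log2 fold change was -0.35 ± 0.18 (adjusted p 0.180, limma) or -0.22 ± 0.08 with the set as a term (adjusted p 0.0417, limma). BCL2L2, which encodes BCL-W, ranged from 1230 to 1442 in EXT1-/- libraries and from 1390 to 1648 in WT libraries (log2 fold change -0.21 ± 0.08, and -0.16 ± 0.04 with the set as a term, adjusted p 0.00934, limma). A readthrough transcript, BCL2L2-PABPN1, overlaps BCL2L2 in GENCODE 29, so the split of reads between them is uncertain.

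Of the 4 BH3-only genes listed as apoptosis regulators, 2 were higher and 0 lower (also 0 lower at an unadjusted p below 0.05 and by limma-voom), and the median log2 fold change was 0.35. BIK, which encodes a BH3-only protein of the endoplasmic reticulum, had 80, 116, 104 and 84 normalised counts in EXT1-/- libraries, against 35, 42, 39 and 36 in WT libraries. The EXT1-/- values were all well above the WT values, though low in absolute terms, at a mean of 2.47 CPM in EXT1-/- cells and 0.977 CPM in WT cells. The log2 fold change of BIK was 1.30 ± 0.16 (SE, adjusted p 0.000334, limma), with 1.47 in the low set and 1.20 in the high set. BMF, a BH3-only protein linked to loss of cell attachment, had 1019, 819, 841 and 971 counts in EXT1-/- libraries, against 737, 583, 560 and 658 in WT libraries. The groups of BMF did not overlap either (log2 fold change 0.53 ± 0.11, adjusted p 0.00616, limma).

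BCL2L11, which encodes BIM, a strong activator of BAX and BAK1, had 1434, 1420, 1403 and 1407 normalised counts in EXT1-/- libraries, against 1430, 1253, 1222 and 1133 in WT libraries. Its 4 EXT1-/- values were nearly equal, and 3 of the 4 WT values lay below them while WT replicate 1 lay among them. BCL2L11 missed the threshold over the 8 libraries (log2 fold change 0.17 ± 0.07, adjusted p 0.102, limma) and with the set as a term (0.15 ± 0.06, adjusted p 0.0566, limma), and passed within the low set (0.23, adjusted p 0.0118, limma). BID, which links death receptors to mitochondria once caspase-8 has cut it, had 478 to 519 counts in EXT1-/- libraries and 395 to 512 in WT libraries (log2 fold change 0.06 ± 0.09).

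**Figure D3:**
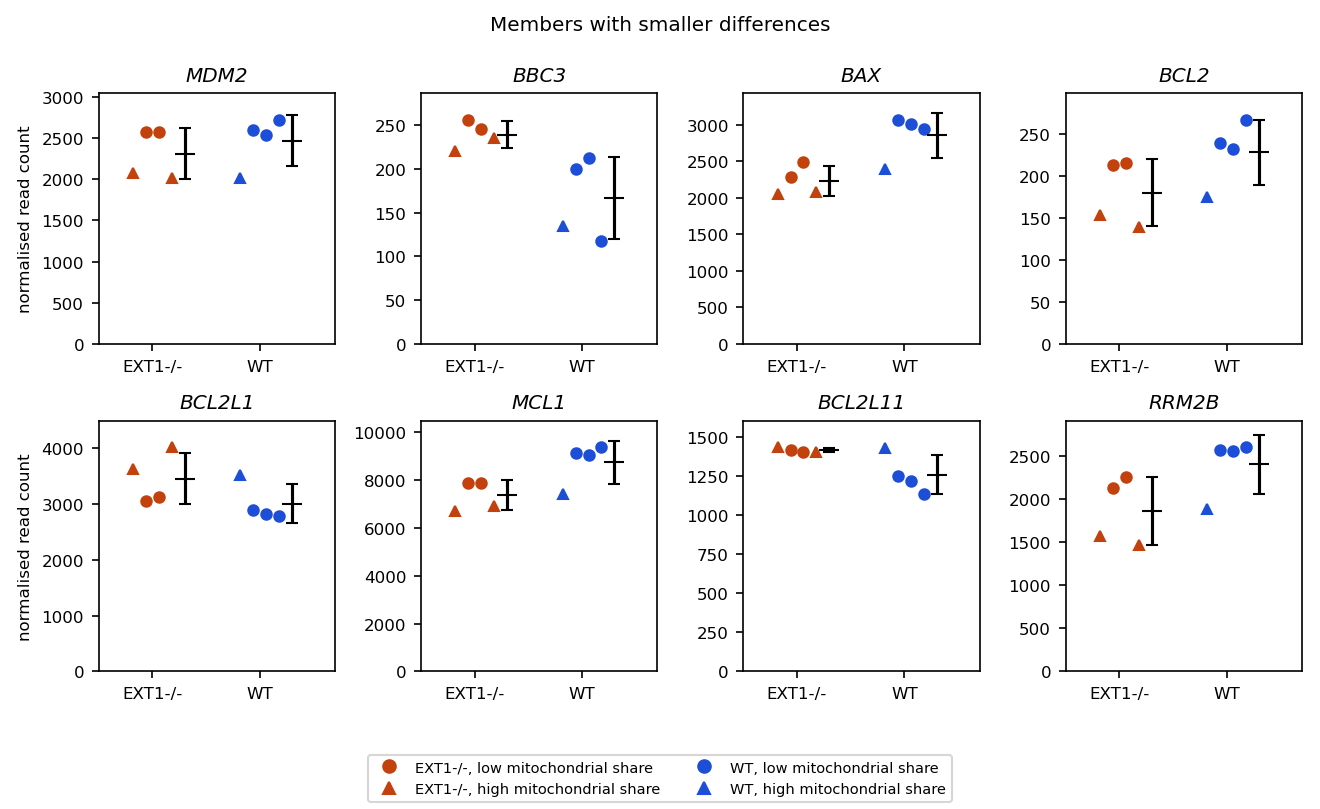
Normalised read counts per library of 8 genes with smaller differences, in EXT1-/- (left) and WT (right) cells, drawn from 0. Triangles are libraries of the high set and circles those of the low set, and the bar is the mean ± SD of 4 libraries. In MDM2, BCL2, MCL1 and RRM2B the triangles are the lowest of each group, and in BCL2L1 the highest.

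Downstream of mitochondria, XIAP, an inhibitor that binds active caspases, was the 1 gene of 4 that passed. XIAP had 1622, 2107, 2107 and 1580 normalised counts in EXT1-/- libraries, against 2396, 3236, 3119 and 3741 in WT libraries. Every EXT1-/- library lay below every WT library, with a log2 fold change of -0.75 ± 0.15 (SE, adjusted p 0.00560, limma), -0.67 in the low set and -0.58 in the high set. APAF1, the scaffold of the apoptosome, had 939 to 1177 counts in EXT1-/- libraries and 1016 to 1392 in WT libraries. CASP9, the caspase it activates, had 463 to 550 in EXT1-/- libraries and 543 to 570 in WT libraries. CASP8, the initiator caspase of death receptors, had 331 to 416 in EXT1-/- libraries and 413 to 459 in WT libraries. The log2 fold changes of these 3 were -0.23 ± 0.12, -0.14 ± 0.07 and -0.23 ± 0.09 in that order. All 3 passed as lower with the set as a term (adjusted p 0.0225, 0.0234 and 0.0217, limma) and not without it. With the set as a term 25.6% of all genes were lower.

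Levels of different genes were compared as mean normalised counts per kilobase of exon, taking the union of each gene's exons in GENCODE 29. Of the 16 genes of the BCL2 family, the caspases, APAF1 and XIAP, PMAIP1 stood second in EXT1-/- cells and first in WT cells, at 1049 ± 145 per kilobase in EXT1-/- cells and 3382 ± 499 in WT cells (SD, n = 4 each). MCL1 stood first in EXT1-/- cells and second in WT cells, at 1684 ± 142 per kilobase in EXT1-/- cells and 1999 ± 202 in WT cells. In EXT1-/- cells PMAIP1 and BCL2L1 (1044 ± 136) were closer than their spread, and BAK1 (885.3 ± 41.4) and BAX (861.6 ± 79.2) followed, again closer to each other than their spread. BIK ranked 12 in EXT1-/- cells and 15 in WT cells, at 100.7 ± 17.8 per kilobase in EXT1-/- cells and 39.9 ± 3.32 in WT cells. BCL2 was last of the 16 in both groups, at 15.3 ± 3.38 per kilobase in EXT1-/- cells and 19.4 ± 3.29 in WT cells. The union of exons is longer than the transcripts in use where a gene has many forms, so such genes read too low on this scale.

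**Figure D4:**
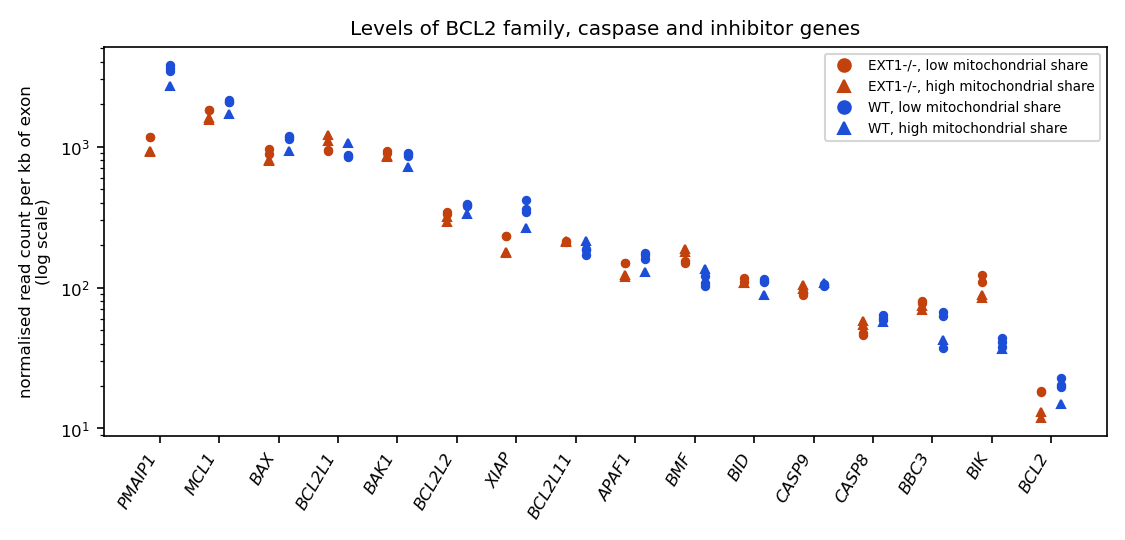
Normalised read count per kilobase of exon, on a log scale, for 16 genes of the BCL2 family, caspases, APAF1 and XIAP, ordered by their WT mean. Each point is a library, EXT1-/- on the left and WT on the right of each gene, with triangles for the high set. PMAIP1 is near BCL2L1 in EXT1-/- cells and the highest in WT cells, and BCL2 is the lowest.

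These genes followed the library sets as well as the genotype. In 18 of the 34 (52.9%, beside 27.1% of all genes) the high-set libraries were the lowest of their group in both EXT1-/- and WT cells, and in 5 (14.7%, beside 27.6%) they were the highest. The set holds 2 of 4 EXT1-/- libraries and 1 of 4 WT libraries. It therefore adds spread to both groups and can also shift differences fitted without a set term. With the term, the log2 fold change of XIAP went from -0.75 to -0.64 and that of RRM2B from -0.38 to -0.26. That of DDB2, where the high set was the highest, went from -0.27 to -0.34. What gave rise to the sets was not tested.

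The wider p53 pathway was read from lists of other genes. Of 25 measured genes for p53 and its regulators, 3 were higher and 1 was lower (16% called, beside 32.0% of all genes), with a median of 0.02. With the library set in the model 9 were higher and 6 lower (60%, beside 51.8%). TP53BP1, a scaffold of the response to double-strand breaks, was higher at a log2 fold change of 0.39 ± 0.06 (adjusted p 0.00125, limma). PPP1R13B and BRD7, both described as cofactors of p53, passed narrowly at 0.37 ± 0.12 and 0.26 ± 0.09 (adjusted p 0.0471 and 0.0479, limma). Each of these calls was kept in 2 of the 8 fits that leave out a library, and that of PPP1R13B was lost in the low set (adjusted p 0.0840, limma). CHEK2, a checkpoint kinase that phosphorylates p53, was lower (-0.29 ± 0.05, adjusted p 0.00402, limma).

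Of 42 further p53 targets, all measured, 5 were higher and 13 lower (42.9% called, beside 32.0% of all genes), with a median of -0.10, and with the library set in the model 8 were higher and 18 lower (61.9%, beside 51.8%). TNFRSF10C and TNFRSF10D, decoy receptors for TRAIL, and the stress kinase gene PLK2 were lower, at log2 fold changes of -1.71 ± 0.14, -0.58 ± 0.08 and -1.08 ± 0.14 (adjusted p 3.86e-05, 0.000607 and 0.000547 in that order, limma). A further list held cell cycle genes that p53 is known to lower through p21 and the DREAM complex. Of 28 measured, 8 were higher (28.6%, beside 15.2% of all genes) and 0 lower (beside 16.8%) at an adjusted p below 0.05 (limma), with a median of 0.13. At an unadjusted p below 0.05, 14 were higher and 0 lower, and no share of all genes stands beside such unadjusted counts. By limma-voom, which called 5021 of all genes, 7 were higher and 0 lower. With the library set in the model 19 were higher (67.9%, beside 26.2% of all genes) and 0 lower (beside 25.6%). KIF20A, KIF23 and MCM5, genes of cytokinesis and replication, were higher by 0.35 ± 0.07, 0.27 ± 0.05 and 0.51 ± 0.12 on the log2 scale.

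Of 35 measured further regulators of apoptosis, 1 was higher and 7 were lower (22.9% called, beside 32.0% of all genes), with a median of -0.08. With the library set in the model 5 were higher and 13 lower (51.4%, beside 51.8%). BNIP3, a mitochondrial BCL2 family relative best known from hypoxia and mitophagy, had 5338, 5448, 5587 and 4443 normalised counts in EXT1-/- libraries, against 10465, 13214, 14126 and 13019 in WT libraries. BNIP3 had the smallest adjusted p of that list (log2 fold change -1.28 ± 0.11, adjusted p 3.61e-05, limma). DAPK1, a death-associated kinase gene, and BCL2L13, a mitophagy receptor gene, were lower (log2 fold changes -0.54 ± 0.05 and -0.23 ± 0.05), and HRK, another BH3-only gene, was higher (0.40 ± 0.10). Among 15 targets of the integrated stress response, which also acts on SESN2, TRIB3, VLDLR, STC2 and PHGDH were lower and 0 were higher (26.7% called, beside 32.0% of all genes), and the median was -0.01. At an unadjusted p below 0.05, 2 were higher, and limma-voom called 0 higher. With the library set in the model 5 were higher and 6 lower (73.3% called, beside 51.8% of all genes). The call of TRIB3 was kept in 3 and that of PHGDH in 2 of the 8 fits that leave out a library. The largest fall was that of VLDLR, a lipoprotein receptor gene, with 877 to 1168 counts in EXT1-/- libraries and 2013 to 2622 in WT libraries. Among 11 genes of the FOXO factors and their targets, which are known to act on BCL2L11, 3 were higher, 4 were lower (63.6% called, beside 32.0% of all genes) and the median was -0.12. FOXO3 and TXNIP, an inhibitor of thioredoxin, were lower (log2 fold changes -0.35 ± 0.05 and -1.11 ± 0.07), whereas CITED2, a transcriptional cofactor gene, was higher (1.61 ± 0.23). CAT, which encodes catalase, had 1 count in each EXT1-/- library and 118 to 139 in WT libraries.

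**Figure D5:**
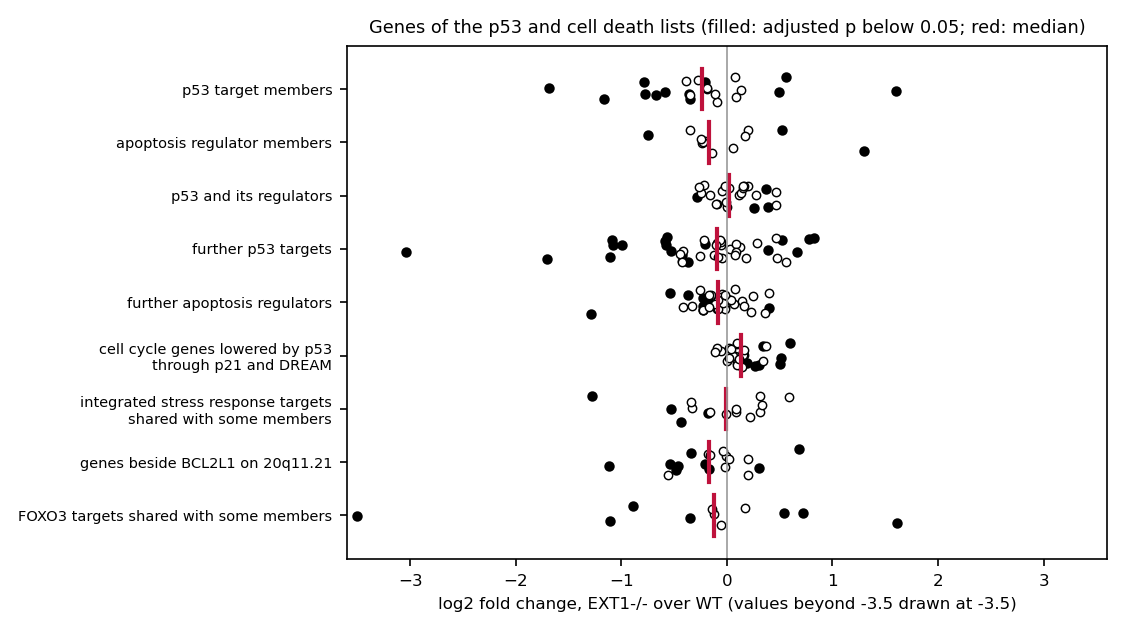
Log2 fold change of EXT1-/- over WT cells for each measured gene of 9 lists, 1 point per gene, filled where the adjusted p was below 0.05, with the list's median as a red bar. The p53 targets spread from PMAIP1 at -1.69 to CDKN1A at 1.60 around a median of -0.24, and no filled point of the cell cycle list lies below 0.

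Markers of cell types moved beside these genes. Summed over the 8 pluripotency markers, EXT1-/- libraries had 3262 to 3602 CPM and WT libraries 4569 to 4716 CPM. The 7 measured of 8 primitive streak markers summed to 329.8 to 530.3 CPM in EXT1-/- libraries and 858.0 to 972.8 CPM in WT libraries, so markers of the labelled fate were detected in both groups. The 6 measured of 8 neuroectoderm markers summed to 148.4 to 223.3 CPM in EXT1-/- libraries and 11.6 to 12.5 CPM in WT libraries. The 5 measured of 8 mesoderm markers summed to 44.9 to 52.4 CPM in EXT1-/- libraries and 285.8 to 309.1 CPM in WT libraries, and the 6 of 7 endoderm markers to 36.6 to 52.8 CPM in EXT1-/- libraries and 14.1 to 15.9 CPM in WT libraries. Surface ectoderm and neural crest markers (6 of 8 measured) summed to 300.8 to 515.5 CPM in EXT1-/- libraries and 402.3 to 471.0 CPM in WT libraries, and amnion and trophectoderm markers (5 of 8) to 103.2 to 171.9 CPM in EXT1-/- libraries and 92.1 to 99.4 CPM in WT libraries. Of 6 fibroblast markers 2 collagen genes were measured, at a sum of 91.2 to 111.8 CPM in EXT1-/- libraries and 146.6 to 180.6 CPM in WT libraries, and 0 of 5 blood markers. By limma, single markers went both ways in 6 of the 8 lists with measured genes, so a few abundant genes may carry a sum. Higher and lower calls were 2 and 5 for pluripotency, 0 and 4 for primitive streak, 5 and 1 for neuroectoderm, 1 and 2 for mesoderm and 3 and 2 for endoderm markers. They were 4 and 2 for surface ectoderm and neural crest, 3 and 1 for amnion and trophectoderm and 0 and 2 for fibroblast markers. The part of these differences in cell type in the values of CDKN1A, PMAIP1 and the other genes was not tested.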

How the data were processed

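The study sequenced 4 EXT1-/- and 4 WT total RNA libraries. The kit was stranded, per the labels' protocols; STAR, RSEM, edgeR and the build GRCh38.p10 are listed without versions, per the submitters' processing notes. The authors deposited 1 table with a column of whole numbers per library, treated here as a normalised signal and called normalised read counts: their effective library sizes, computed here by an own trimmed mean of M values, were 38891466 to 38902443. Some low whole numbers, such as 10, 30 and 50 in WT replicate 4, are held by no gene, as rescaling leaves, so raw depth and whole reads were not recovered and count models were not run. For each gene the authors also deposited an FDR, a p-value, a log2 fold change and a score (the likelihood ratio). Genes below about 1 CPM in their second-highest library are not listed, since the lowest such value was 0.977 CPM.

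The values were tested as log2(value + 1) with limma 3.58.1 (intensity trend, genotype as the only term, genes kept with a mean of 1 or more in EXT1-/- or WT libraries, Benjamini-Hochberg adjustment over all genes, R 4.3.3), a fit that was tested on simulated data. Fold changes on this scale understate the change of low genes. Other steps used pandas 2.3.3, scipy 1.17.1, numpy 2.4.6 and matplotlib 3.10.9 in Python 3.11.15. Library sets were split at the largest gap in mitochondrial share. No library was a copy of another: chi-square divided by its degrees of freedom was 4.46 to 10.8 for pairs of a group within a set and 74.9 to 120.5 between sets. Coordinates are from GENCODE 29 and promoters from RefSeq. Genes and lists were chosen with earlier results of these data known. Every listed gene was named, with all 8 values where it passed with at least a 1.5-fold difference and always for CDKN1A, MDM2, BBC3, BAX, BCL2, BCL2L1, MCL1 and BCL2L11, and of each other list up to 4 genes of smallest adjusted p, a few of which are not reported here; all 8 values of DDB2, RRM2B, FAS, BMF and BNIP3 were added after they were seen. The alternatives were other scalings, pseudocounts (0.5 and 10), filters and limma settings, a replicate block, the library set, and each library left out.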

Additional observations from a re-analysis of the deposited data

Results flagged for a closer look

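Among the 68 groups of 4 libraries looked at (34 genes in EXT1-/- and in WT cells), 6 held a library far from the other 3, judged by that library's gap to its nearest neighbour as a share of the group's range. Chance alone gives about 1 in 20 groups, and these genes are not independent of each other. In 5 of the 6 that library was WT replicate 1, which is the only WT library of high mitochondrial share: it was the lowest for RRM2B (gap 0.945 of the range), TNFRSF10B (0.900), SPATA18 (0.851) and MCL1 (0.831) and the highest for BCL2L1 (0.866). In the sixth, EXT1-/- replicate 3 was the highest for BID, at 519 normalised counts beside 478 to 485 in the other EXT1-/- libraries (0.8293).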

How the results depend on the processing

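Directions did not reverse for any of the 34 genes that were called under any alternative run. Apart from fits that leave out a library, counts of calls moved by more than 1.5 times in these cases: 2 genes were higher with a filter of at least 5 CPM in 4 libraries, which left 31 of the 34; 20 were lower when the model held the library set and 19 within the libraries of low mitochondrial share; and 8195 genes of the whole table were called with the set in the model and 5063 without it. When each library was left out in turn, 3 to 5 genes were higher (3 without EXT1-/- replicate 1, 2 or 3 or WT replicate 4), 7 to 16 were lower (16 without WT replicate 1) and 3721 to 6041 of all genes were called. The medians of the p53 targets (-0.28 to -0.22) and of the apoptosis regulators (-0.19 to -0.15) then moved by less than the spread between replicates. With a replicate block 5 genes were higher and 13 lower, and 4934 of all genes were called. Same-numbered EXT1-/- and WT libraries correlated at 0.71, 0.29, 0.24 and -0.51 in their deviations from the group means. Only 1 of 4 EXT1-/- libraries correlated best with its own number. These correlations follow the library sets: EXT1-/- replicates 1 and 4 correlated with WT replicate 1 at 0.71 and 0.59. They therefore cannot show whether the numbers pair the samples. Other scalings, pseudocounts and limma-voom changed at most 3 calls each. The depth of raw reads is unknown, which limits what can be said of BIK, the lowest of these genes, and fold changes cannot be split into raw counting error and spread between cultures.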

Other observations

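BCL2L1 lies in 20q11.21, and its neighbours there were read as well. Of 18 measured neighbours in EXT1-/- against WT cells, 2 were higher (ID1 and ASXL1) and 7 lower (50% called, beside 32.0% of all genes), with a median log2 fold change of -0.17. TPX2, the next measured gene along the chromosome, had 0.20 ± 0.10 and BCL2L1 had 0.20 ± 0.11, and neither passed (adjusted p 0.147 and 0.201, limma). XKR7, POFUT1, COMMD7 and DNMT3B were lower, at -1.12 ± 0.09, -0.47 ± 0.06, -0.54 ± 0.10 and -0.48 ± 0.09 (adjusted p 3.14e-05 to 0.00379, limma). Copy number was not measured.

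The 4 TRAIL receptor genes lie side by side on chromosome 8, and all 4 were lower in EXT1-/- cells: TNFRSF10A at -0.53 ± 0.09, TNFRSF10B at -0.59 ± 0.10, TNFRSF10C at -1.71 ± 0.14 and TNFRSF10D at -0.58 ± 0.08 on the log2 scale (limma, adjusted p 3.86e-05 to 0.00175). This group was picked after its values were seen. These genes are close paralogs, so reads may be shared between them. FAS, the other death receptor gene described, was higher, a call that was lost within the low set (adjusted p 0.0592, limma).

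NOXA acts by binding MCL1. The ratio of MCL1 to PMAIP1 normalised counts, also chosen after the values were seen, was 3.001 to 3.312 in EXT1-/- libraries and 1.100 to 1.246 in WT libraries. It is a ratio of RNA without correction for gene length, and protein was not measured. Per kilobase of exon, PMAIP1 stood above MCL1 in WT cells (means 3382 and 1999). The log2 fold change was -1.69 for PMAIP1 and -0.24 for MCL1, so the ratio mostly restates the fall of PMAIP1. Each range of the ratio is narrow, but both genes were lower in the high set within each group, and a ratio partly cancels such a shared shift.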
